A study of Mus musculus with 8 samples.

Results

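The genes described here are 32 genes of the unfolded protein response and of endoplasmic reticulum (ER) quality control, out of 23356 genes in a table of sciatic nerve RNA levels. They were chosen by symbol, from known roles and with earlier results of these data known, and all 32 were found. Averaged over the 8 libraries, 30 of them and 12530 genes in all reached 1 FPKM and were tested. FPKM counts fragments per length of gene and per size of library, so levels of different genes are set side by side per length. The 2 members under that mean were Chac1 and Derl3.

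The nerves came from mice of the F1 cross C57BL/6;FVB/N at an age of 30 days. The 4 genotypes, with 2 libraries each, were HA-NRG1 type III/+:Q215X/+ (the double), HA-NRG1 type III/+, Q215X/+ and wild type (WT). Q215X is a mutation carried on 1 allele. HA-NRG1 type III is a transgene for a tagged type III form of neuregulin 1, the axonal ligand of Schwann cell ERBB receptors. Which promoter drives the transgene is not given in the sources used. The double carries both alleles, and all groups share the mixed background. The columns end in 0 or 1, called set 0 and set 1 here, and values are given in that order. No label states that the 2 libraries of a genotype are from different mice. Those of HA-NRG1 type III/+ read as different sexes, as given below, so they are not from the same mouse. For the other genotypes, the spread between libraries on which the p-values rest may be technical.

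Proteins made for the cell surface or for secretion fold in the ER, and a load of unfolded protein there is sensed by PERK, IRE1 and ATF6. PERK phosphorylates eIF2α, which slows translation in general but favours that of ATF4. IRE1 removes an intron from the mRNA of XBP1, and ATF6 is cut in the Golgi to release a transcription factor. XBP1 and ATF6 act on genes of chaperones and of ER-associated degradation (ERAD), which returns misfolded proteins to the cytosol. Myelinating Schwann cells make large amounts of membrane protein, which passes through the ER. The study's title names a model of congenital hypomyelination neuropathy, and the comparisons below ask how the response genes stand with the mutation, with the transgene and with both. Gene-level FPKM show neither the splicing of Xbp1 nor the phosphorylation of eIF2α or the cutting of ATF6.

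Nrg1 was at 0.164 to 0.498 FPKM in every library, under the level for testing, so it does not settle the transgene labels. It had 0.498 and 0.358 FPKM in the double and 0.393 and 0.312 in HA-NRG1 type III/+. Q215X/+ had 0.326 and 0.190, and WT 0.204 and 0.164. Within each set both transgene groups lay above the groups without the transgene, while the pooled groups overlapped. Total FPKM ran from 491106 to 530901 in set 1 and from 443733 to 463736 in set 0. The 4 myelinating Schwann cell markers used (Mbp, Pmp22, Prx and Mal) summed to 34566 to 40438 FPKM, as a sciatic nerve label asks, and plasma and B cell markers to 1.55 to 2.71. The set 1 library of Q215X/+ stood apart, with 5 skeletal muscle markers at a sum of 747 FPKM, against 2.45 to 60.0 in the other 7 libraries. Its red blood cell markers summed to 1279 FPKM and its adipocyte markers to 1302, against 32.2 to 569 and 439 to 926 elsewhere. From Xist and the Y-linked Ddx3y, the double and WT libraries read as female, those of Q215X/+ as male, and those of HA-NRG1 type III/+ as male in set 0 and female in set 1.

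Promoters of 27 members, from 250 bases before to 50 after the start, were matched in the RefSeq table of build GRCm38.p6. Ppp1r15b, Manf, Atf6, Hyou1 and Derl1 had no entry. The ER stress response element (ERSE) is CCAAT, then 9 bases of any kind, then CCACG, and it was searched on both strands. It was held by 9 of the 27 (33.3%) and by 0.119% of all 32851 promoters. The members were chosen from known roles that include known targets of this element, so a higher share is not a separate finding. Each member was counted by 1 promoter, while the 32851 are all entries, here and for the other elements below. Below are 7 matches in 6 of these genes with their flanks, shown because chaperone genes are known targets of this element and the chaperones set 1 library apart. Sequences read 5′ to 3′ on the strand of the gene, and capitals mark the match, which reads as its reverse complement where it lies on the opposite strand (Creld2, Calr and the second Hsp90b1 match).
Hspa5, chr2:34772017-34772051, plus strand: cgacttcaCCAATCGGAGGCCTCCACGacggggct
Hsp90b1, first match, chr10:86705630-86705664, minus strand: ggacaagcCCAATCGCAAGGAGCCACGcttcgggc
Hsp90b1, second match, chr10:86705525-86705559, minus strand: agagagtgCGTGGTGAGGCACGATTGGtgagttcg
Creld2, chr15:88819512-88819546, plus strand: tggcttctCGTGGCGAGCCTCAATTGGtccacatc
Calr, chr8:84847067-84847101, minus strand: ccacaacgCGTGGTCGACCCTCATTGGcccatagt
Canx, chr11:50325792-50325826, minus strand: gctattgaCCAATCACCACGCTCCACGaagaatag
Pdia6, chr12:17266483-17266517, plus strand: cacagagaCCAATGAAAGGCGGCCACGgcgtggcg

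Dnajc3, Syvn1 and Derl3 held the element too, so 7 of the 9 genes were of the chaperone and isomerase groups. These groups make up 13 of the 32 members, and of the 13, Hyou1 and Manf had no promoter entry. The first matched base lay at position -65 from the start in Hspa5 and at -98 in Pdia6. A second form, ERSE-II, which is ATTGG, 1 base of any kind and CCACG, was in 2 of the 27, against 0.0365% of all promoters. The C/EBP-ATF site bound by ATF4 and CHOP, TGATGNAAN, was in 3 of the 27, Trib3, Chac1 and Herpud1, against 3.95% of all promoters. The UPR element TGACGTGG was in 0 of the 27 and in 0.676% of all promoters. Both strands were searched for these as well, and the C/EBP-ATF matches printed lie on the opposite strand. These matches are shown because Herpud1, with a match of both kinds, had the largest difference between sets among the members, and Trib3 is a textbook target of CHOP.
Dnajb11, ERSE-II, chr16:22857844-22857870, plus strand: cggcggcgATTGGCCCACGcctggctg
Herpud1, ERSE-II, chr8:94386369-94386395, plus strand: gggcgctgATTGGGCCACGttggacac
Herpud1, C/EBP-ATF, chr8:94386308-94386332, plus strand: cacggcggGTTGCATCAgcccgcac
Trib3, C/EBP-ATF, chr2:152344031-152344055, minus strand: agctcaggTTTACATCAgccgggcg

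The 250 bases before the start of Hspa5 follow, since its promoter is a textbook target of ATF6 and XBP1. Capitals mark the one exact ERSE match in them, and a match of letters is a description, not a measured binding site.
Hspa5, chr2:34771840-34772089, plus strand: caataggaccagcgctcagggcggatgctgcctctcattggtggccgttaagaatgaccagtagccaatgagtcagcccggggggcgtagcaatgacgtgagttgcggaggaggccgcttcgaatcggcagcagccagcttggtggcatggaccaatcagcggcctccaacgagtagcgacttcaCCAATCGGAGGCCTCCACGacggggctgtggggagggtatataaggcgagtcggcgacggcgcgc

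The levels of the folding genes spanned a wide range. The 5 highest in WT lay far above the sensors, and Sdf2l1, the lowest at 10.7 FPKM, lay below Eif2ak3 and Atf6. In WT, Calr averaged 248 ± 5.49 FPKM, Hsp90b1 224 ± 33.5, Hspa5 170.4 ± 13.3, Pdia3 137 ± 11.5 and Canx 118 ± 13.1 (SD, n = 2). These means lay above 97.5% to 98.9% of all 23356 genes. Among the sensors, Eif2ak3 averaged 12.3 ± 1.55 FPKM, Atf6 10.8 ± 0.569 and Ern1 3.85 ± 0.580. Over the 4 genotypes the highest mean was 1.03 times the lowest for Atf6, the smallest ratio among the 30, and 1.25 times for Ddit3, the largest. In a bulk nerve, fewer cells of a type and less RNA per cell cannot be told apart.

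**Figure D1:**
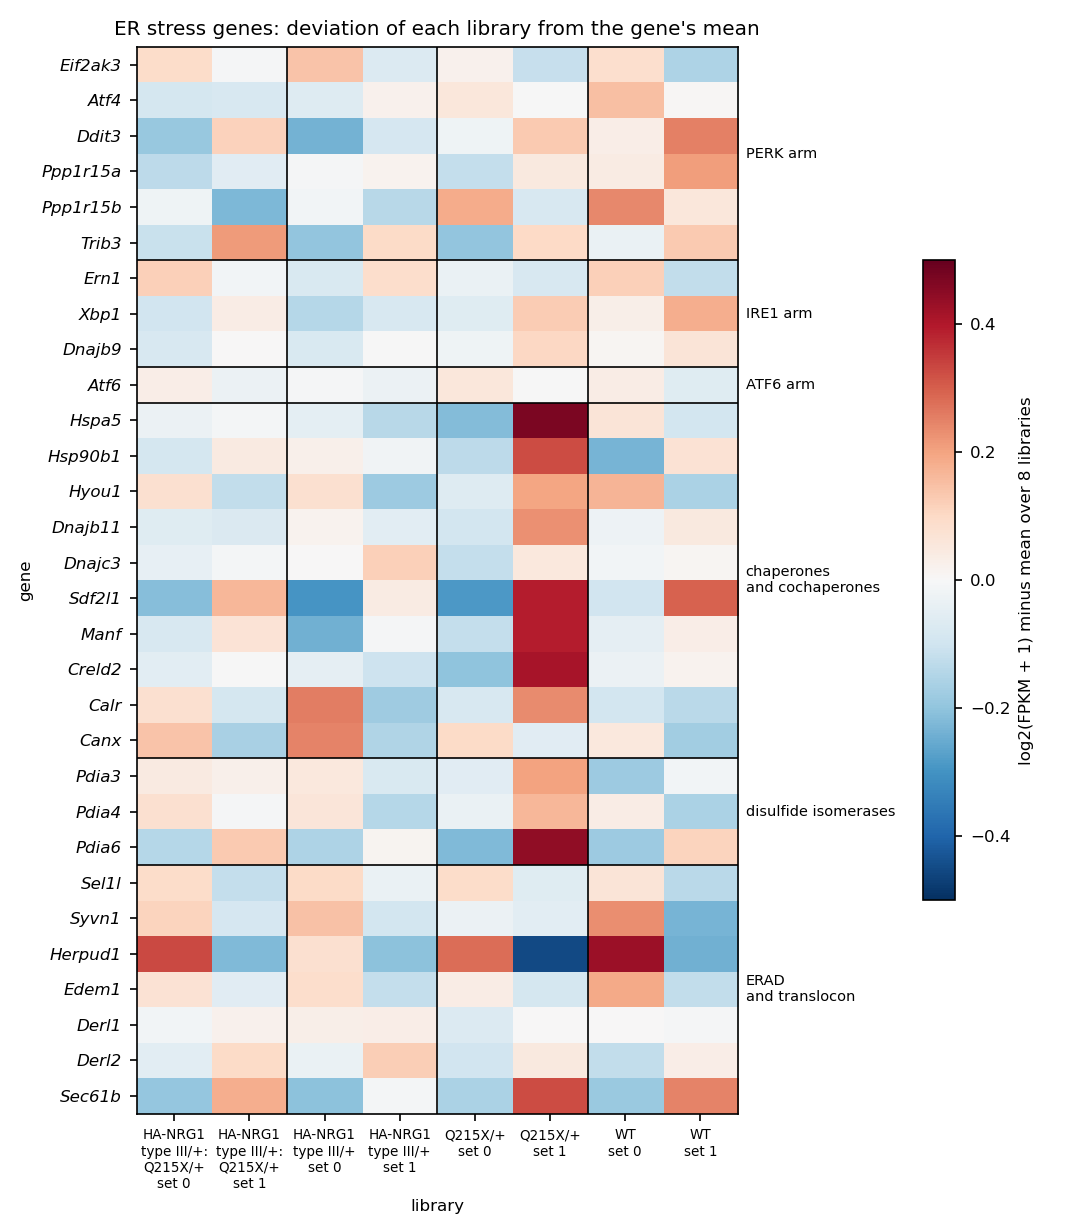
Heat map of 30 genes (rows, grouped by role) in 8 libraries (columns). Colour is log2(FPKM + 1) minus the gene's mean over the 8 libraries, which ran from -0.45 to 0.47. The set 1 library of Q215X/+ holds the highest value of 10 of the 13 chaperone and isomerase genes, and Herpud1 is lower in set 1 than in set 0 in every genotype.

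No member was called in any of 7 comparisons by limma with Benjamini-Hochberg adjustment at 0.05, in a fit of 4 group means over the 8 libraries. The comparisons were Q215X/+ against WT, HA-NRG1 type III/+ against WT, the double against Q215X/+ and against WT, the transgene over both backgrounds, the mutation over both backgrounds, and their interaction. Each comparison was also fitted with the set as a replicate block, which takes the difference between sets out of the spread. The values behind these counts follow by arm of the response, then by comparison.

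The arm of PERK held the 2 members called lower with the transgene over both backgrounds in the block fit of all 8 libraries. Ddit3 encodes CHOP, a transcription factor associated with a prolonged response. It had 18.1 and 22.6 FPKM in the double, 17.4 and 19.5 in HA-NRG1 type III/+ and 20.4 and 22.8 in Q215X/+, against 21.2 and 24.9 in WT. Within each set both transgene groups lay below the groups without the transgene, while the pooled groups overlapped. Ppp1r15b encodes the constitutive subunit that directs a phosphatase to eIF2α. Its values were 21.2 and 18.3 FPKM in the double, 21.3 and 19.4 in HA-NRG1 type III/+, 24.6 and 20.3 in Q215X/+ and 25.6 and 22.5 in WT. Here too both transgene groups were lowest in each set, but set 0 was the higher one.

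Ppp1r15a encodes GADD34, the stress-induced counterpart of that subunit and a target of ATF4 and CHOP. It had 30.5 and 32.2 FPKM in the double, 33.3 and 33.9 in HA-NRG1 type III/+ and 30.8 and 34.7 in Q215X/+, against 34.5 and 38.8 in WT. WT was the highest genotype in each set. Atf4, the factor whose translation rises when eIF2α is phosphorylated, stood at 73.5 and 73.9 FPKM in the double, 74.7 and 79.4 in HA-NRG1 type III/+, 81.4 and 78.1 in Q215X/+ and 86.8 and 78.4 in WT. The double was lowest in both sets, and the other 3 genotypes lay between 78.1 and 79.4 FPKM in set 1. Eif2ak3, which encodes PERK itself, had 13.5 and 12.5 FPKM in the double, 13.99 and 12.0 in HA-NRG1 type III/+, 12.8 and 11.5 in Q215X/+ and 13.4 and 11.2 in WT. It was higher in set 0 in all 4 genotypes.

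Targets further down the arm were close to the limit of testing. Trib3, a pseudokinase induced by CHOP, was at 1.01 and 1.52 FPKM in the double, 0.894 and 1.32 in HA-NRG1 type III/+, 0.894 and 1.33 in Q215X/+ and 1.12 and 1.38 in WT. Chac1, an enzyme that breaks down glutathione and a target of ATF4, had 0.316 and 0.883 FPKM in the double, 0.484 and 0.558 in HA-NRG1 type III/+, 0.266 and 0.703 in Q215X/+ and 0.451 and 0.458 in WT. The 2 libraries of the double and of Q215X/+ differed more for Chac1 than the genotype means did.

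Of the IRE1 arm, Xbp1 and Dnajb9 had both transgene groups below the groups without the transgene in each set. Xbp1 had 59.3 and 65.1 FPKM in the double, 57.4 and 59.9 in HA-NRG1 type III/+, 60.9 and 69.4 in Q215X/+ and 64.7 and 72.1 in WT. Dnajb9, a cochaperone of the ER chaperone BiP and a target of XBP1, had 19.9 and 21.1 FPKM in the double, 19.9 and 21.1 in HA-NRG1 type III/+, 20.7 and 22.7 in Q215X/+ and 21.2 and 22.1 in WT. Ern1, the sensor IRE1α, had 4.25 and 3.79 FPKM in the double, 3.58 and 4.14 in HA-NRG1 type III/+, 3.72 and 3.58 in Q215X/+ and 4.26 and 3.44 in WT, in no common order of genotypes. Atf6, the third sensor, stayed between 10.4 and 11.4 FPKM in all 8 libraries.

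Among chaperones, the set 1 library of Q215X/+ was high and its set 0 library low. Hspa5 encodes BiP, the chaperone that holds the sensors inactive. It had 168 and 170.4 FPKM in the double, 166 and 156 in HA-NRG1 type III/+ and 148 and 238 in Q215X/+, against 179.8 and 161 in WT. Q215X/+ thus held both the lowest and the highest of the 8 values. Creld2, an ER calcium-binding protein induced by stress, had 28.8 and 30.0 FPKM in the double, 29.0 and 27.8 in HA-NRG1 type III/+, 25.9 and 40.3 in Q215X/+ and 29.4 and 30.4 in WT. Again the 2 Q215X/+ libraries were the extremes.

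Manf, a stress-induced protein of the ER that is also secreted, showed the high library without the low one. Its values were 24.1 and 26.9 FPKM in the double, 21.5 and 25.5 in HA-NRG1 type III/+, 23.5 and 33.9 in Q215X/+ and 24.8 and 26.2 in WT. Hsp90b1, the ER form of HSP90, had 221 and 243 FPKM in the double, 239.7 and 232 in HA-NRG1 type III/+, 215.1 and 295 in Q215X/+ and 200.1 and 247 in WT. Hyou1, an exchange factor for BiP, and Dnajb11, a cochaperone that brings clients to BiP, reached 21.2 and 44.9 FPKM in that library and 16.1 to 20.8 and 35.7 to 39.5 in the others. Sdf2l1, a partner of Dnajb11, reached 13.2 FPKM there and 7.81 to 12.3 elsewhere.

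The lectin chaperones Calr and Canx had their highest values in another library, though within set 1 both were highest in Q215X/+. Calr, which holds glycoproteins back until they are folded, had 284 and 252 FPKM in the double, 321 and 237 in HA-NRG1 type III/+, 254 and 317 in Q215X/+ and 252 and 244 in WT. Its highest value was in the set 0 library of HA-NRG1 type III/+. Canx, the membrane-bound lectin chaperone, ran from 109 to 118 FPKM in set 1 and from 128 to 146 in set 0. Dnajc3, a cochaperone that is also known to bind PERK, ran from 29.9 to 35.5 FPKM and was highest in set 1 of HA-NRG1 type III/+.

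The isomerases, which form and reshuffle disulfide bonds, followed the chaperones. Pdia6 had 76.5 and 92.5 FPKM in the double, 76.0 and 85.4 in HA-NRG1 type III/+, 72.3 and 115 in Q215X/+ and 74.5 and 91.4 in WT. Pdia3, which works with the lectin chaperones, reached 169 FPKM in set 1 of Q215X/+ and 129 to 152 elsewhere. Pdia4 reached 59.3 FPKM there and 47.1 to 55.7 elsewhere.

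**Figure D2:**
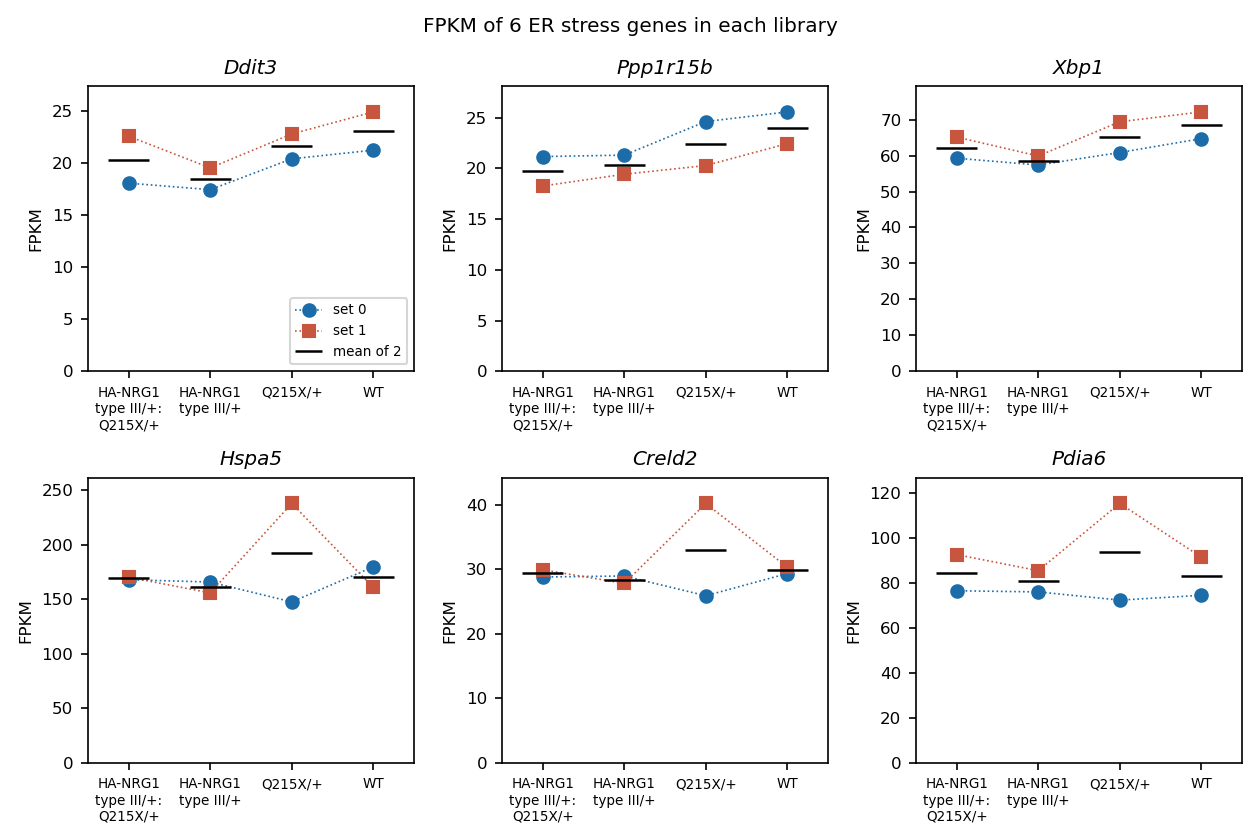
FPKM (y axes from 0) of 6 genes in each library, by genotype (x axes), with circles for set 0, squares for set 1 and bars for the mean of 2. Dotted lines join the libraries of a set. Ddit3, Ppp1r15b and Xbp1 are lower in both transgene groups within each set, while Hspa5, Creld2 and Pdia6 stand highest in set 1 of Q215X/+ at 238, 40.3 and 115 FPKM.

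Several ERAD genes split by set rather than by genotype. Herpud1, which builds the retrotranslocation complex around the ligase HRD1, had 46.5 and 31.4 FPKM in the double, 38.9 and 31.8 in HA-NRG1 type III/+, 44.9 and 26.6 in Q215X/+ and 49.9 and 31.0 in WT. Every set 1 value was below every set 0 value. Sel1l and Syvn1, the adaptor and the ligase of the HRD1 complex, ran from 34.1 to 36.7 and 10.5 to 12.0 FPKM in set 1 and from 39.4 to 40.3 and 12.2 to 14.8 in set 0. Edem1, which marks misfolded glycoproteins for export, ran from 8.11 to 8.54 FPKM in set 1 and from 9.20 to 10.3 in set 0.

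The derlins are membrane proteins of the export channel. Derl1 varied little, from 43.6 to 46.8 FPKM, and Derl2 ran from 11.3 to 13.6. Derl3, under the level for testing, differed up to 2.83-fold between libraries, with 0.0988 and 0.202 in the double, 0.140 and 0.190 in HA-NRG1 type III/+, 0.279 and 0.161 in Q215X/+ and 0.169 and 0.208 in WT. Sec61b, a subunit of the channel through which proteins enter the ER, ran from 65.6 to 83.0 FPKM in set 1 and from 57.1 to 59.1 in set 0.

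Between Q215X/+ and WT, which asks for the effect of the mutation alone, 0 of 30 members were called, as against 0.00798% of all genes tested (also 0.00798% and 0 members with the block). At an unadjusted p under 0.05 limma gave 0 members (2.04% of genes), and 1 with the block, Ppp1r15a (7.41% of genes). The differences of members ran from -0.18 to 0.19 on the log2(FPKM + 1) scale, a scale that understates changes of low genes. All 6 tested genes of the PERK arm lay below 0, with a median of -0.09 (all genes -0.01, of which 52.3% lay below 0), and 11 of 13 chaperones and isomerases lay above 0, with a median of 0.13 (47.5% of all genes lay above 0). Calr was the only member whose groups did not overlap (254 and 317 FPKM in Q215X/+, 252 and 244 in WT), as against 8.78% of genes higher without overlap and 10.2% lower. The 7 members lower in both sets were Atf4, Ddit3, Herpud1, Ppp1r15a, Ppp1r15b, Trib3 and Xbp1, 23.3% against 26.7% of genes. The 8 members higher in both sets were Atf6, Calr, Canx, Derl2, Hsp90b1, Pdia3, Sec61b and Sel1l, 26.7% against 23.4% of genes. Sex cannot be told apart from genotype here, since both Q215X/+ libraries read as male and both WT libraries as female.

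The chaperone values of this comparison came from 1 set. In set 1 all 13 chaperone and isomerase genes were higher in Q215X/+ than in WT, with a median of 0.33. In set 0 only 4 of the 13 were higher, with a median of -0.07. For Hspa5 the difference was 0.56 in set 1 and -0.28 in set 0. The set 1 library of Q215X/+ had the highest value of 12 of the 30 members, while 16.8% of all genes peaked there. That library is the one with the muscle, red blood cell and adipocyte markers given above, and their part in the result was not tested.

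**Figure D3:**
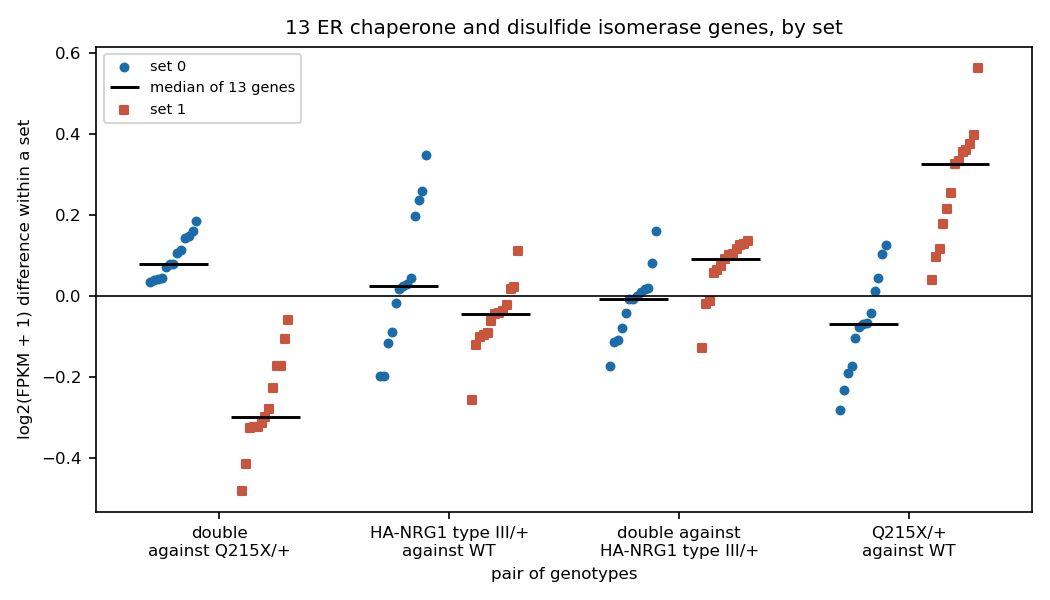
Differences in log2(FPKM + 1) within a set (y axis) for 13 chaperone and isomerase genes in 4 pairs of genotypes (x axis), with circles for set 0, squares for set 1 and bars for the median. The double against Q215X/+ and Q215X/+ against WT share the Q215X/+ libraries, and in set 1 their medians are -0.30 and 0.33.

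Between HA-NRG1 type III/+ and WT, which asks for the effect of the transgene alone, 0 of 30 members were called, as against 0.0638% of all genes (2.11% and 0 members with the block). At an unadjusted p under 0.05 limma gave 0 members (6.9% of genes), and 4 with the block, where 17.5% of genes passed. The 4 were Ddit3, Ppp1r15b, Sdf2l1 and Xbp1, all lower, 13.3% of members as against 9.23% of genes that passed and were lower. Groups did not overlap for 6 members that were lower in HA-NRG1 type III/+, namely Creld2, Ddit3, Dnajb9, Ppp1r15a, Ppp1r15b and Xbp1, 20% of members as against 15.7% of genes. Derl1 was the 1 member higher without overlap (14.7% of genes). The 4 largest differences were those of Ddit3 at -0.30 (SE 0.14, adjusted p = 0.786 in limma), Sdf2l1 at -0.23 (SE 0.27, adjusted p = 1), Ppp1r15b at -0.23 (SE 0.13, adjusted p = 0.907) and Xbp1 at -0.22 (SE 0.11, adjusted p = 0.831). Chaperones and isomerases had a median of -0.03, with 6 above 0 and 7 below, where 47.4% of all genes lay above 0 and 52.4% below. Set 0 of HA-NRG1 type III/+ read as male and both WT libraries as female. Sex and transgene therefore cannot be told apart in set 0, while in set 1 sex does not differ.

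Between the double and Q215X/+, which asks for the effect of the transgene in the mutant, 0 of 30 members were called, as against 0.0399% of all genes (1.72% and 0 members with the block). At an unadjusted p under 0.05 limma gave 0 members (6.58% of genes), and 1 with the block, Ppp1r15b (15.7% of genes). All 30 differences lay between -0.18 and 0.14, with Ppp1r15b lowest (SE 0.13) and Herpud1 highest (SE 0.33). Ern1 was the 1 member higher without overlap (14.6% of genes) and Atf4 the 1 lower (15.2% of genes). Below 0 lay 21 of the 30 members, 70% as against 53.2% of genes. Chaperones and isomerases made up 12 of these 21. In set 1 all 13 of them were lower in the double than in Q215X/+ (median -0.30), and in set 0 all 13 were higher (median 0.08). Over the 8 libraries their median deviation was highest in set 1 of Q215X/+, at 0.24, and lowest in set 0 of Q215X/+, at -0.12. Both Q215X/+ libraries read as male and both double libraries as female, so sex and genotype cannot be told apart here either.

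Between the double and WT, 0 of 30 members were called, as against 0.112% of all genes (2.39% and 0 members with the block). At an unadjusted p under 0.05 limma gave 0 members (7.29% of genes), and 4 with the block, where 17.9% of genes passed. The 4 were Ddit3, Ppp1r15a, Ppp1r15b and Xbp1, all lower, 13.3% of members as against 10.2% of genes that passed and were lower. Groups did not overlap for 5 lower members, Atf4, Dnajb11, Dnajb9, Ppp1r15a and Ppp1r15b, a share of 16.7% that equals the 16.7% of all genes. Calr and Pdia3 were higher without overlap (14.4% of genes). Both libraries of each group read as female, so sex does not differ here. Ppp1r15b had a difference of -0.27 (SE 0.13, adjusted p = 0.776 in limma) and Ppp1r15a of -0.22 (SE 0.10, adjusted p = 0.747), the 2 largest. The comparisons above share their WT and Q215X/+ libraries, so a gene low in several of them is not low in separate samples.

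With the 4 transgenic libraries set against the 4 others, 0 of 30 members were called, as against 0.99% of all genes, and 0 at an unadjusted p under 0.05 (11.2% of genes). With the set as a replicate block, limma called 2 of 30 members lower, Ddit3 and Ppp1r15b, a share of 6.67% as against 7.1% of all genes called in either direction and 3.69% called lower. Ddit3 had a log2 difference of -0.20 (SE 0.0419 with the block, adjusted p = 0.0459, and 0.574 without the block), with 4 of 4 pairs lower. For Ddit3 the pairs differed by -0.27 and -0.34 on the WT background and by -0.17 and only -0.013 in the mutant. Ppp1r15b also had -0.20 (SE 0.0390 with the block, adjusted p = 0.0354, and 0.524 without it), with 4 of 4 pairs lower. Xbp1 was lower in 4 of 4 pairs too, at -0.14, with an adjusted p = 0.0850 with the block and 0.635 without it. These 3 were the members with an unadjusted p under 0.05 with the block (23.3% of genes).

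Both calls ended in most alternatives. With the block and without any one library, the adjusted p of Ddit3 was 0.0786 to 0.206 and that of Ppp1r15b 0.0502 to 0.178. With sex as a further term in the block fit of all 8 libraries, limma gave an adjusted p = 0.154 for Ddit3 and 0.0797 for Ppp1r15b, with differences of -0.18 and -0.22 in place of -0.20 each. Only HA-NRG1 type III/+ had libraries of both sexes, so this term was estimated from that genotype alone and is a weak adjustment. In the one pair in which both libraries read as female on the WT background, HA-NRG1 type III/+ against WT in set 1, Ddit3 differed by -0.34, Ppp1r15b by -0.20 and Xbp1 by -0.26. Ddit3 shares 68 exon bases with Mars on the opposite strand and Ppp1r15b 640 with Gm26616, per GENCODE vM21, and no source used here tells whether the table was counted by strand. With the block and without the set 0 library of Q215X/+, limma called 2 other members lower with the transgene, Creld2 (-0.25, adjusted p = 0.0448) and Hspa5 (-0.30, adjusted p = 0.0457), which leaves Q215X/+ with its set 1 library only (669 of all genes called). Of all 30 members, 6 were lower in 4 of 4 pairs (20%, as against 17.5% of genes) and 3 were higher, Derl1, Derl2 and Eif2ak3 (10%, as against 14.5%).

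**Figure D4:**
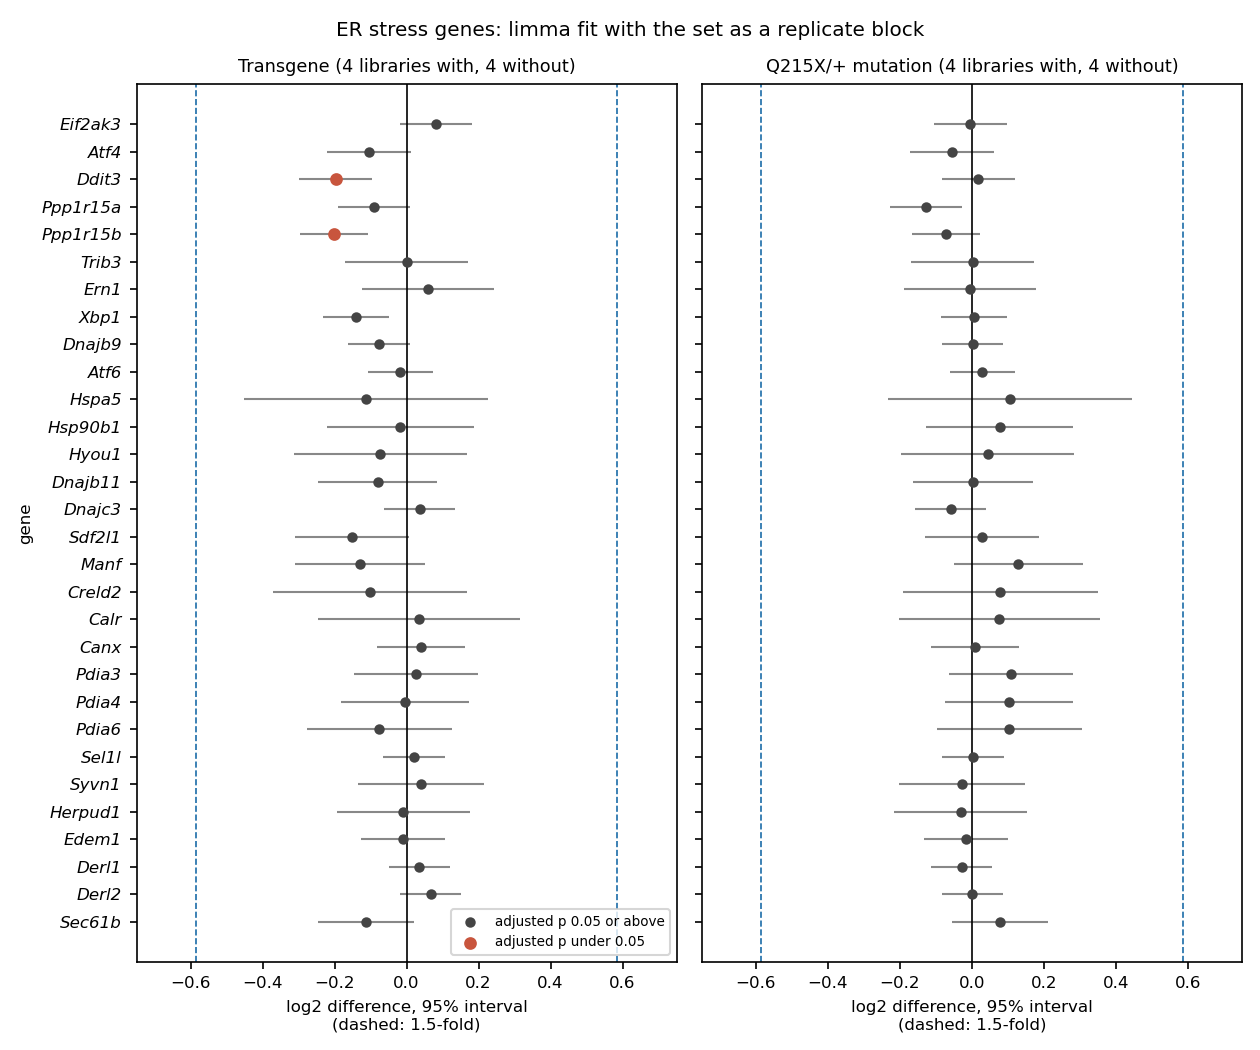
Log2 differences (points) with 95% intervals (bars) of 30 genes for the transgene and for the mutation, each 4 libraries against 4, from limma with the set as a replicate block. Dashed lines mark a 1.5-fold change of FPKM + 1 either way, and no interval reaches them. The 2 larger points are Ddit3 and Ppp1r15b, called at an adjusted p under 0.05 in this fit and not in the fit without the block.

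With the 4 libraries that carry the mutation set against the 4 without it, 0 of 30 members were called, as against 0.00798% of all genes (0.016% with the block, also 0 members). At an unadjusted p under 0.05 limma gave 0 members (2.06% of genes), and 1 with the block, Ppp1r15a (6.77% of genes). Ppp1r15a was lowest at -0.13 (SE 0.0411 with the block, adjusted p = 0.596, lower in 4 of 4 pairs). Atf4 and Ppp1r15b were lower and Sec61b higher in 4 of 4 pairs as well, so 10% of members were lower in all pairs, as against 8.22% of genes, and 1 was higher, as against 6% of genes. The interaction, the transgene effect in the mutant minus that in WT, called 0 of 30 members, as against 0.00798% of all genes with and without the block. At an unadjusted p under 0.05 it gave 0 members (1.11% of genes), and 1 with the block, Ddit3 (4.78% of genes). The transgene had opposite signs on the 2 backgrounds in both sets for 2 members (7.9% of genes) and the mutation for 6 (12.1% of genes). Sex differs in some of these pairs of libraries, since Q215X/+ and set 0 of HA-NRG1 type III/+ read as male.

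The intervals bound how large a response could be at this level of error. The bound used is 1.5-fold on FPKM + 1, so for low genes such as Trib3 it stands for a larger change in FPKM. With the block, the 95% interval excluded a 1.5-fold change either way for 28 of 30 members between Q215X/+ and WT (94.8% of genes), all but Calr and Hspa5. It did so for 29 of 30 between the double and Q215X/+ (91.4% of genes), all but Hspa5, and for 30 of 30 for the mutation over both backgrounds (97.8% of genes). For the transgene over both backgrounds it was also 30 of 30 (95.2% of genes). Without the block, 23 members (76.7%) passed between Q215X/+ and WT (81.6% of genes). Those that did not were Calr, Hspa5, Hsp90b1, Pdia6, Sdf2l1, Herpud1 and Sec61b, most of them chaperones or isomerases. Also without it, 25 members passed between the double and Q215X/+ (76.9% of genes) and 29 for the mutation (93.2% of genes). For Hspa5 between Q215X/+ and WT the interval ran from -0.34 to 0.62 with the block, and for Ddit3 from -0.23 to 0.06. These are intervals of single genes and are not adjusted over genes. They do not separate sex from genotype, and the spread behind them may be technical.

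The sets differed for many members. With a term for the set, a test chosen after the data were seen, limma called 8 members higher in set 1 (as against 22.1% of genes) and 6 lower (as against 12.9%). Higher were Ddit3, Derl2, Manf, Pdia6, Sdf2l1, Sec61b, Trib3 and Xbp1. Lower were Canx, Edem1, Eif2ak3, Herpud1, Ppp1r15b and Sel1l. Herpud1 had the largest difference of the lower ones, -0.56 (limma adjusted p = 0.00436), and Sdf2l1 and Sec61b the largest of the higher ones, 0.45 and 0.37 (limma adjusted p = 0.00525 for each). What the column ending stands for was not found in the labels.

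Promoters with and without the ERSE were also set side by side across libraries. In set 1 of Q215X/+, the 8 tested members with an exact ERSE had a median deviation of 0.28 from their means, and the 17 other members with a promoter in the table had 0.10. In set 0 of Q215X/+ the medians were -0.12 and -0.03. In the other 6 libraries the ERSE group lay between -0.10 and 0.01 and the rest between -0.06 and 0.03. The genes with the element were largely the chaperones described above, so the 2 groupings are not separate observations.

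Other genes of the pathway were called with the transgene, with the block at a share close to that of all genes. Of 135 further genes in 10 lists, 134 were found and 125 tested, and for the transgene over both backgrounds limma called 2, both higher, and 9 with the block, 6 higher and 3 lower, where 0.99% and 7.1% of all genes were called. The 9 were 3 of 12 further ATF4 and CHOP targets, 2 of 13 genes of the ER calcium store, and 1 each of 8 glycoprotein folding, 14 disulfide oxidoreductase, 23 translocon and 6 IRE1-dependent decay genes. None was among 11 eIF2α kinase and eIF2 genes, 9 of the ATF6 family and its proteases, 23 further ERAD factors and 6 ER-phagy receptors. Their median was 0.01 and that of all genes -0.01. Asns, the asparagine synthetase gene and a target of ATF4, had 5.21 and 5.84 FPKM in the double and 6.05 and 5.59 in HA-NRG1 type III/+, against 3.43 and 3.61 in Q215X/+ and 4.12 and 3.80 in WT. It rose by 0.49 (SE 0.0638, limma adjusted p = 0.0355), and all 4 transgenic libraries were above the 4 others. Itpr1, a calcium release channel of the ER, had 9.39 and 9.63 FPKM in the double and 9.75 and 9.74 in HA-NRG1 type III/+, against 6.82 and 7.01 in Q215X/+ and 7.83 and 7.25 in WT. It rose by 0.37 (SE 0.0514, limma adjusted p = 0.0417), again with no overlap. A term for sex rests on the libraries of HA-NRG1 type III/+ alone, as said above. Such a term beside the block kept both calls (limma adjusted p = 0.0382 for Asns and 0.0477 for Itpr1). The block with no filter on low values ended both (0.0749 for Asns and 0.0546 for Itpr1). Without any one library and without the block neither was called (0.0944 to 0.148 for Asns and 0.0972 to 0.185 for Itpr1), while their differences stayed at 0.46 to 0.53 and 0.35 to 0.40. With the block, the call of Asns ended without set 1 of WT (adjusted p = 0.0515) and without set 1 of the double (0.0629), and that of Itpr1 without set 0 of the double (0.0631) and without set 1 of it (0.0694).

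The other 7 were called with the block alone, by limma. Higher were Ero1l, the oxidase that supplies disulfide bonds and a target of CHOP (0.22, adjusted p = 0.0355), Scara3, whose mRNA is a known substrate of IRE1 (0.38, adjusted p = 0.0106), the sulfhydryl oxidase Qsox1 (0.20, adjusted p = 0.0423) and the glycoprotein folding sensor Uggt2 (0.26, adjusted p = 0.048). Lower were Itpr3, another calcium release channel (-0.28, adjusted p = 0.0108), Ssr1, a translocon-associated protein (-0.19, adjusted p = 0.0428), and Vldlr, a lipoprotein receptor induced by ATF4 (-0.28, adjusted p = 0.0303). Sex as a term added to the block ended all 7 calls, with limma adjusted p from 0.0523 for Itpr3 and 0.0565 for Scara3 to 0.146 for Qsox1, and differences that kept their sign. No filter beside the block ended all but Itpr3 (0.0419). With the block, the calls of Ero1l, Qsox1 and Ssr1 ended without any one of the 8 libraries. Those of Uggt2 and Vldlr held in 1 fit each, without set 0 of Q215X/+ for Uggt2 (0.0463) and without set 1 of Q215X/+ for Vldlr (0.0375). That of Scara3 ended without set 1 of WT, of HA-NRG1 type III/+ or of the double and without set 0 of HA-NRG1 type III/+ (0.0506 to 0.0660), and that of Itpr3 without any one library of the double or of HA-NRG1 type III/+ (0.0515 to 0.0851). Scara3 had 26.4 and 25.7 FPKM in the double and 25.8 and 23.1 in HA-NRG1 type III/+, against 19.5 and 16.4 in Q215X/+ and 22.6 and 18.7 in WT. Asns, Itpr1 and Scara3 were also called between the double and Q215X/+ with the block (0.53, 0.41 and 0.52), and all 3 calls ended without any one library. A term for sex beside the block ended them too, at limma adjusted p = 0.682 for Asns, 0.753 for Itpr1 and 0.736 for Scara3, with differences of 0.66, 0.40 and 0.49. No filter beside the block also ended them (0.198, 0.144 and 0.168). Between HA-NRG1 type III/+ and WT, Itpr3 was called with the block (-0.30, limma adjusted p = 0.0488). That call ended with median ratio scaling (0.0508), no filter (0.117) or a term for sex (0.261) beside the block, and without any one library (0.0602 to 0.259). For the mutation over both backgrounds, limma called 0 of the 125, also at an unadjusted p under 0.05 and with the block.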

How the data were processed

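Sciatic nerve RNA of 8 libraries was read with 1 FPKM value per gene and library, computed by the authors and deposited as a single table. The submitters' processing notes name TopHat2 2.0.9 and Cufflinks 2.2.0, with mm10 as the build. The sources used here give no roles for them, and no gene annotation, filter or strand setting. The name stem for the transgene is an abbreviation, read as HA-NRG1 type III/+ because no other stem named that genotype.

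Read depth is unknown, since FPKM carry no read numbers, and counting error cannot be given. Steps between low values gave relative depths of 0.727 to 1.09 with WT set 0 as 1. Values were analysed as log2(FPKM + 1) with limma 3.58.1 in R 4.3.3, over the 12530 genes that averaged 1 FPKM or more. The fit had 4 group means, an eBayes trend and 4 residual degrees of freedom, and calls were made at a Benjamini-Hochberg adjusted p under 0.05. Errors are SD over 2 libraries or the SE of the fit. The code was tested on simulated data first.

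The set was checked as a pairing by the correlation across genes of set 1 minus set 0, which was 0.118 to 0.304 in all 6 pairs of genotypes. This pairing rests on the data, as no label gives it. The fit with a replicate block for the set had 3 residual degrees of freedom, and its values stand beside results whose call they change.

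The members and all gene lists were chosen with earlier results of these data known. All members are named. Of each further pathway list, genes called with or without the block are named, at most 4 a list and comparison. Nrg1 was read as a check of the transgene labels. The level of the mutated gene is not reported here, and it was left out of the Schwann cell markers. Alternatives were another pseudocount (0.1), no filter, median ratio scaling, the block, leaving out each library, and, added after seeing the data, these beside the block and a term for sex. Promoters came from RefSeq (GRCm38.p6) and exon overlaps from GENCODE vM21 on GRCm38.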

Additional observations from a re-analysis of the deposited data

Results flagged for a closer look

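For 6 members, 1 of the 2 factors differed one way in both sets on 1 background and the other way in both sets on the other. The size of this difference is the interaction, the transgene effect in the mutant minus that in WT, which equals the mutation effect with the transgene minus that without it. By limma with the replicate block the interaction was not called for any of the 6 (adjusted p = 0.974 for Derl2 and 0.965 for Trib3, Sel1l, Ddit3, Xbp1 and Canx), so the difference was seen in signs and not by the test. Among all genes tested, 7.9% showed such opposite signs for the transgene and 12.1% for the mutation. Both Q215X/+ libraries and set 0 of HA-NRG1 type III/+ read as male and the rest as female. Sex and genotype therefore cannot be told apart in these signs.

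Trib3, whose mean of 1.18 FPKM was close to the limit of testing, showed it for both factors, with an interaction of 0.20 on the log2 scale. Both factors are read from the same libraries, so they are not separate observations. The transgene differed by 0.09 and 0.11 in the mutant and by -0.16 and -0.04 in WT, in sets 0 and 1. The mutation differed by 0.09 and 0.12 with the transgene and by -0.16 and -0.03 without it. Sel1l also showed it for both, with an interaction of -0.10, and a transgene effect in the mutant of only -0.00078 in set 0.

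Ddit3 had an interaction of 0.21, with mutation effects of 0.05 and 0.20 with the transgene and -0.06 and -0.12 without it. Its unadjusted p was 0.0429 with the block, and the limma adjusted p 0.965. Xbp1 had an interaction of 0.15, with mutation effects of 0.05 and 0.12 with the transgene and -0.09 and -0.05 without it. Canx had an interaction of -0.14 and Derl2 had -0.044, both for the mutation.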

How the results depend on the processing

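The count of members called was 0 in all 24 alternative fits for 6 of the 7 comparisons. For the transgene over both backgrounds it was 0 in 20 fits and 2 in 4. The pairing by set as a replicate block gave 2 (Ddit3 and Ppp1r15b), and it gave 2 with median ratio scaling and 2 with a pseudocount of 0.1 beside it. Without any one library the block gave 0 to 2 members, the 2 being Creld2 and Hspa5 without set 0 of Q215X/+. The cause was not tested. The block with no filter gave limma adjusted p = 0.116 for Ddit3 and 0.0896 for Ppp1r15b. Median ratio scaling left Ddit3 at -0.19 and Ppp1r15b at -0.20. Of the 16 gene differences recomputed in this way (those called with or without the block, and Xbp1), none reversed under any alternative. Libraries left out leave 1 library in a group, which is then assumed to vary like the others. With 2 libraries a group, unknown depth, sexes that partly follow genotype and 1 library with muscle RNA, small differences are hard to resolve.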
